A study of Homo sapiens with 2 samples.

Results

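LDB1 is a nuclear adaptor protein without a DNA-binding domain of its own, and it works through partners such as LMO proteins, GATA factors and E-box-binding factors at enhancers and promoters. Its sites were mapped in untreated NB4 cells, an established human acute promyelocytic leukaemia line with the PML::RARA fusion. The assay was CUT&Tag, in which an antibody brings a Tn5 transposase to its target so that the DNA beside the target is cut and tagged. There was 1 LDB1 library and 1 library with a non-specific IgG, without replicates. The values therefore lack any check between samples, and the IgG background was not analysed here. NB4 stands for 1 leukaemia line only. The members described are the LDB1 peaks whose sequence name in the deposited list ends in _alt. They numbered 719 of 53742 peaks, or 1.34% (exact 95% interval 1.24 to 1.44%), against 52765 peaks on chromosomes 1 to 22 and X, called the main chromosomes below. Positions are hg38 and count from 1. Each peak had a position and a width but no height, score or read number, so depth was unknown. Intervals cover counting error within this list only.

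Alternate contigs are extra sequences that the human reference assembly carries for regions where people differ too much for 1 sequence to stand for all. Each belongs to a stretch of a parent chromosome and repeats much of it in another version. The best known are the versions of the major histocompatibility complex (MHC) on chromosome 6, where the antigen-presenting HLA genes lie. Others are those of the leukocyte receptor complex on chromosome 19, with the KIR and LILR receptor genes of immune cells, and of an inversion region at 17q21.31 around MAPT, the gene of the tau protein. A read from such a region can match the parent chromosome and 1 or more contigs equally well. How such reads were handled is not given in the sources used here, and the part this played in the values below was not tested. The sequence of the contigs was not used here.

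Sequences are shown for 3 gene starts of the main MHC. They lie under main-chromosome peaks whose distances to another peak were found again on contigs, as described further on. Each is the RefSeq promoter window of GRCh38.p14, from 250 bases before the start to 50 after it, written 5' to 3' on the gene's strand. Capitals mark the E-box CANNTG, which basic helix-loop-helix factors can bind, and the letters GATA or, for the other strand, TATC. The TNXB window is chr6:32046079-32046378 (minus strand), that of PPT2 is chr6:32153891-32154190 (plus strand) and that of SCAND3 is chr6:28616153-28616452 (minus strand).
TNXB: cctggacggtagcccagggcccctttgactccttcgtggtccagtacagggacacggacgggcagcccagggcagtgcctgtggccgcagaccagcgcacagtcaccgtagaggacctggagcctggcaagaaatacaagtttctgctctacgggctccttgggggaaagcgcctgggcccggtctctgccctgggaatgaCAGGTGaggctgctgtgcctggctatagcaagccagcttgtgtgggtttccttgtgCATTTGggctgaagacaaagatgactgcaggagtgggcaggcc
PPT2: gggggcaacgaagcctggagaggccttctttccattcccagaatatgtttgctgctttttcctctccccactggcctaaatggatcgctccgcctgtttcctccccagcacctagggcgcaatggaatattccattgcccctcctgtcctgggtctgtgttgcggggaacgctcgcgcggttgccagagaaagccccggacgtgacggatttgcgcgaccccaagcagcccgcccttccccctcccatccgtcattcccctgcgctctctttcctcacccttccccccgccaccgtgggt
SCAND3: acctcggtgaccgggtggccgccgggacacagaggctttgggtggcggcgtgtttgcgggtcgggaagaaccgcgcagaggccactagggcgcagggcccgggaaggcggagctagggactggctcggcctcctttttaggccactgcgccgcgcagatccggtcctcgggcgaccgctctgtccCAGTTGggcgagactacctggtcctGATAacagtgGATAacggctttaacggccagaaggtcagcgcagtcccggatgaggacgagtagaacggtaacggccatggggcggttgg
The TNXB window, of a start inside this gene for an extracellular matrix protein, held 2 CANNTG and no GATA, and lay under a peak over all 300 bases. The PPT2 window, of a lysosomal thioesterase gene, held neither motif and was also covered over 300 bases. The SCAND3 window held 1 CANNTG and 2 GATA, and the peak covered 252 bases of it. Among 34943 promoter windows of this length, 68.7% held CANNTG and 49.8% held GATA or TATC, so these letters are common.

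Alternate-contig peaks were spread over 147 contigs of 22 parent chromosomes. Chromosome 8 contigs held the most, 112 peaks on 16 contigs, followed by chromosome 17 with 88 on 9, chromosome 6 with 83 on 12 and chromosome 5 with 71 on 8. Chromosomes 1, 7, 15, 19, 2 and 3 had 45, 43, 40, 34, 33 and 31 peaks. Chromosomes 11, 12, 16, 14 and 10 had 28, 21, 21, 18 and 17, and chromosomes 4 and 22 had 10 each. Chromosomes 18 and 21 had 4, chromosome 13 had 3, chromosome 20 had 2 and chromosome X had 1. Chromosome 9 had no such peak beside 2058 peaks on its main sequence, which allows a share of up to 0.146% (3 counts of the total).

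These counts did not follow the number of peaks on the parent. The share of a parent's peaks that lay on its contigs was highest for chromosome 15 at 3.94% (2.83 to 5.33%) and chromosome 8 at 3.87% (3.20 to 4.64%). It was 3.18% (2.56 to 3.90%) for chromosome 17, 2.91% (2.33 to 3.60%) for chromosome 6 and 2.61% (2.04 to 3.28%) for chromosome 5. Chromosome 1, with 5352 main peaks, stood at 0.834% (0.609 to 1.11%), and chromosome 2, with 4415, at 0.742%. The intervals of the first 5 lie wholly above those of chromosomes 1 and 2. The number and length of the contigs that each chromosome has were not used here, so these shares are not densities.

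**Figure D1:**
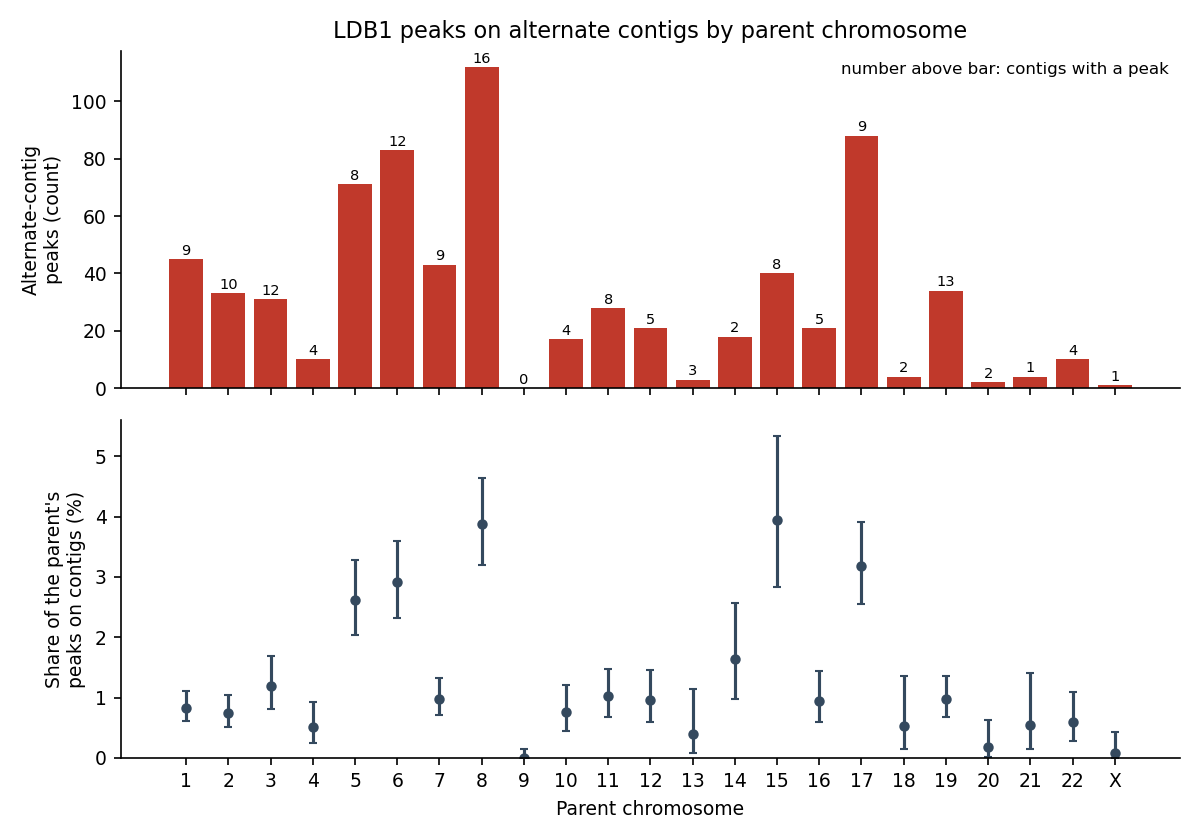
Top, number of LDB1 peaks on alternate contigs (bars) by parent chromosome, with the number of contigs holding them above each bar. Bottom, share in % of each parent's peaks (main sequence plus contigs) that lay on contigs, with exact 95% intervals; chromosomes 15, 8, 17, 6 and 5 have the highest shares and chromosome 9 has none.

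Few contigs held many peaks. A single peak was listed on 42 of the 147 contigs, while 17 contigs with 10 or more peaks held 281 of the 719 (39.1%, 35.5 to 42.8%). The contig with the most peaks was KI270857v1 of chromosome 17 with 30, from 408250 to 2775104 on the contig, at 12.7 peaks per Mb of that span. KI270792v1 of chromosome 5 had nearly as many, 29, but within 176 kb, or 164 per Mb. KI270819v1 of chromosome 8 was as dense, with 20 peaks in 123 kb (162 per Mb). At the other end, GL000254v2 of the MHC had 10 peaks over 4.52 Mb, or 2.21 per Mb.

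Each of the 17 contigs was set beside windows of its own peak span on the main parent chromosome, 1 window starting at each main peak. Dense stretches start more of these windows, so the median window is weighted towards them and is not the average of the chromosome. Since the contigs were taken for having 10 or more peaks, a contig whose median window held fewer had to lie above it, so this side of the median is no result for KI270792v1, KI270791v1 and KI270819v1. The 29 peaks of KI270792v1 were matched or passed in 85 of the windows of chromosome 5 (3.21%), whose median was 6 peaks and whose densest held 42. KI270791v1, also of chromosome 5, had 16 peaks in 194 kb where the median window had 7, and KI270819v1 had 20 where the median on chromosome 8 was 7. KI270860v1 of chromosome 17 (15 against 13) and KI270762v1 of chromosome 1 (16 against 14) lay close to the median. The other 12 contigs lay below it. As a ratio to the median, the 4 MHC contigs among them lay furthest below, with 10 to 20 peaks where the median window of chromosome 6 had 94 to 107. KI270857v1 had 30 where the median was 117. Per Mb of its span KI270857v1 had 12.7 peaks, where chromosome 17 from its first to its last peak had 32.3.

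**Figure D2:**
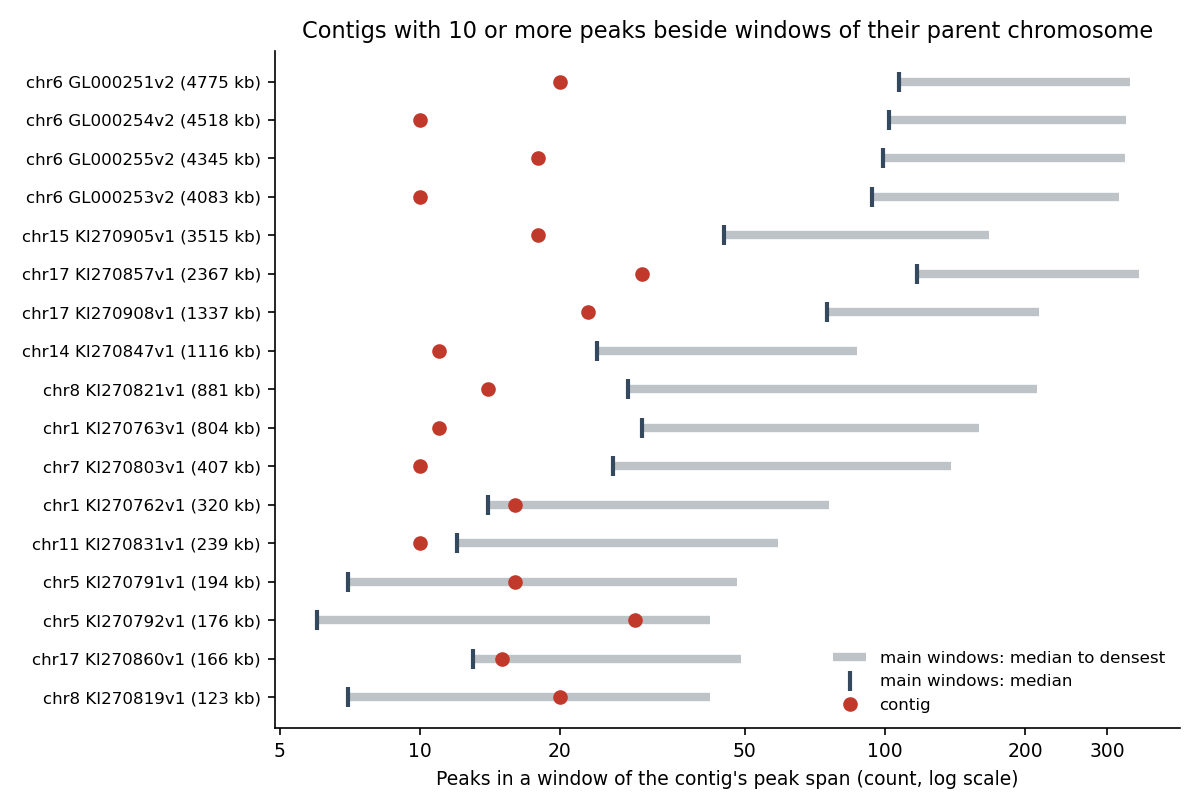
Contigs with 10 or more LDB1 peaks, ordered by the length from their first to their last peak (in brackets). Red points give the number of peaks on the contig. Grey bars run from the median (dark tick) to the highest number in windows of the same length on the main parent chromosome, on a log scale. A window starts at each main peak, so dense stretches weigh more in the median. A short contig had to reach 10 peaks to be shown, more than the median tick of some windows; all contigs longer than 400 kb lie to the left of theirs.

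Peaks on alternate contigs were narrower than those on the main chromosomes. Their median width was 482 bp (95% interval 467 to 501 bp, quartiles 388 and 678 bp, range 323 to 5030 bp) against 550 bp (547 to 553 bp, quartiles 408 and 816 bp). Widths of 1 kb or more were listed for 73 of 719, 10.2% (8.04 to 12.6%), against 16.5% (16.1 to 16.8%) on the main chromosomes. Widths of 2 kb or more made up 1.39% (0.669 to 2.54%) against 2.72% (2.58 to 2.86%). The lowest quintile of main-chromosome widths took in 25.3% (22.2 to 28.7%) of the alternate-contig peaks and the highest quintile 13.1% (10.7 to 15.8%). Peaks on unplaced and unlocalised contigs, which are also outside the main chromosomes, had a median of 559 bp (524 to 631 bp, n = 244).

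The difference had the same direction on most parents. Among the 17 parents with 10 or more alternate-contig peaks, the contig median was below that of the main chromosome for 16 and above it only for chromosome 12 (643 against 529 bp). The 95% intervals of the 2 medians did not overlap for 4 of the 16. Chromosome 6 was among these 4, with 436 bp (412 to 468 bp) against 530 bp (514 to 542 bp). Of its contig peaks 70 lay on MHC contigs, and the 19 main-chromosome peaks of the MHC had a median of 465 bp. Chromosome 5 contigs came close to their parent, with 523 bp (453 to 652 bp) against 537 bp (524 to 550 bp), so no difference was detectable there.

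**Figure D3:**
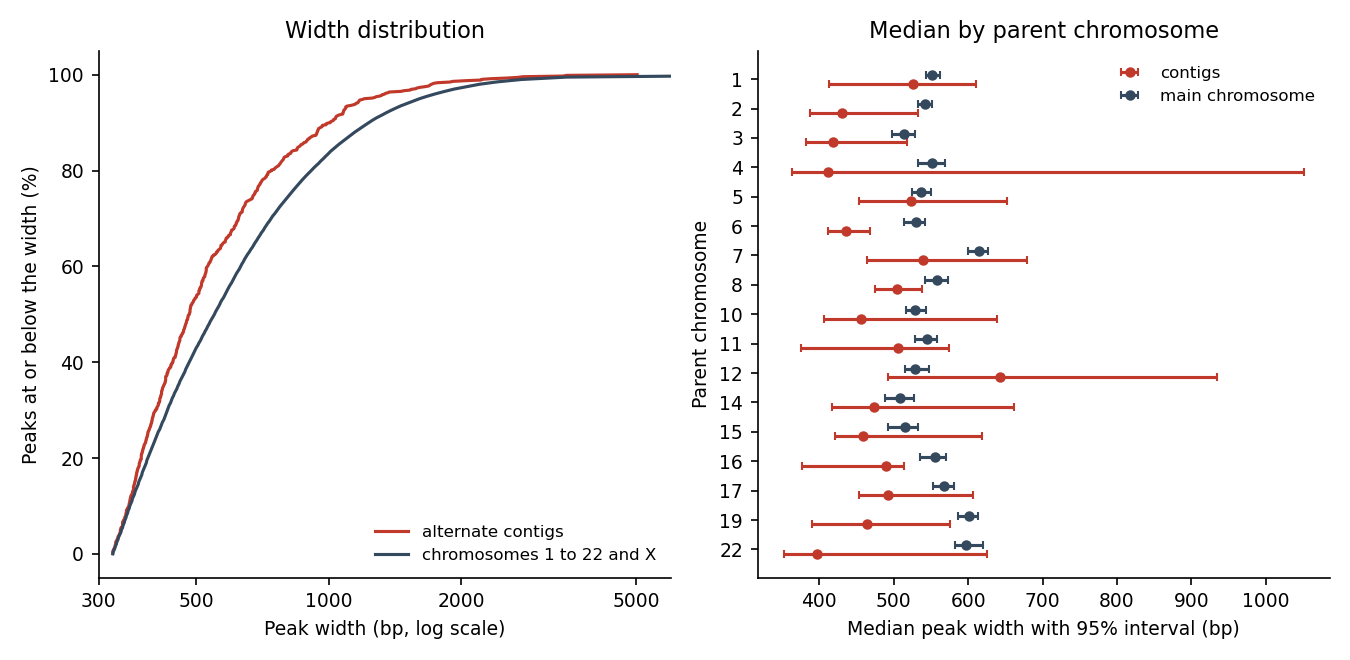
Left, share of peaks at or below each width (log scale) for the alternate contigs (red) and the main chromosomes (dark). Right, median width with its 95% interval on contigs and on the main sequence of each parent with 10 or more alternate-contig peaks. The red curve lies to the left of the dark one, and 16 of 17 contig medians lie below that of the parent.

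Of the 10 widest peaks, 4 lay on a single contig of chromosome 5. The widest measured 5030 bp, at 83255 to 88284 of KI270792v1, and the next 3468 bp, at 75981 to 79448 of the same contig. A peak of 3416 bp lay at 55220 to 58635 of KI270894v1 of chromosome 2. These were the 3 peaks of 3 kb or more, 0.417% (0.0861 to 1.21%) against 0.769% on the main chromosomes. The other two of KI270792v1 were 2768 and 2337 bp wide. The rest of the 10 were 2692 bp on KI270762v1 of chromosome 1, 2543 bp on KI270831v1 of chromosome 11, 2228 bp on KI270872v1 of chromosome 21, 2222 bp on GL949752v1 of chromosome 19 and 2045 bp on KI270763v1 of chromosome 1. Chromosome 8, first by number, reached no more than 1732 bp, and chromosome 6 no more than 1539 bp.

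Neighbouring peaks lay further apart on contigs. The 572 gaps between neighbours had a median of 16.1 kb (quartiles 3.93 and 62.3 kb) against 9.56 kb (2.35 and 42.4 kb) on the main chromosomes. Gaps of 10 kb or less made up 41.8% (37.7 to 45.9%) against 50.8%, and gaps of 1 kb or less 8.04% (5.95 to 10.6%) against 13.0%. The closest neighbours were 333 bp apart, on KI270927v1 of chromosome 11, beside a least gap of 324 bp on the main chromosomes. A short contig cannot show a long gap, so the length of the contigs limits these gaps.

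Few contig peaks lay in large clusters. With peaks 10 kb or less apart joined, 9 clusters of 5 or more peaks held 67 contig peaks, 9.32%, against 36.6% of peaks on the main chromosomes. Only 55 of the 147 contigs had 5 or more peaks, so the rest could not hold such a cluster. Each main chromosome had far more peaks, so these shares are not like for like. The largest contig cluster was a run of 22 peaks over 86.4 kb of KI270792v1 (75242 to 161626), which held 4 of the 10 widest peaks. The next largest were 7 peaks in 25.5 kb of KI270819v1 and 6 peaks each in 10.6 kb of KI270836v1 of chromosome 12, in 22.4 kb of KI270865v1 of chromosome 19 and in 12.4 kb of KI270762v1. Where these contigs lie on their parents was not used here, so no gene is named for them.

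The MHC contigs held 70 peaks, all of them on the 7 long haplotype sequences of the region. The cell lines of origin give these their names. GL000251v2 (COX) had 20 peaks and GL000255v2 (QBL) had 18. GL000253v2 (MANN) and GL000254v2 (MCF) had 10 each, GL000256v2 (SSTO) had 7, GL000252v2 (DBB) had 3 and GL000250v2 (APD) had 2. These are versions of 1 region, complete to different degrees, and their counts ran from 2 to 20. The peaks had a median width of 437 bp (412 to 474 bp), an interval that takes in the 465 bp of the 19 main-chromosome peaks of the region. The other 13 alternate-contig peaks of chromosome 6 lay on 5 further contigs.

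On the main chromosome 6 the same region was nearly empty. Between GPX5 and ZBTB9, 2 genes at the edges of the MHC (chr6:28525881-33457544, 4.93 Mb), 19 peaks were listed, or 3.85 per Mb. The stretch of the same length to the left held 138 peaks (28.0 per Mb) and that to the right 337 (68.3 per Mb), while chromosome 6 as a whole had 16.2 per Mb. By protein-coding genes the order was the opposite, with 171 in the region against 104 and 64 in the flanks. Per 100 coding genes there were 11.1 peaks in the region, 133 to the left and 527 to the right. The first 500 kb beyond ZBTB9 held 50 peaks, and the 500 kb before GPX5 held 13. The 4 MHC contigs with 10 or more peaks were sparse too. Their densities are per Mb from first to last peak, not between bounding genes, so they are not like for like with the 3.85. GL000251v2 had 4.19 per Mb of its span, GL000255v2 had 4.14, GL000253v2 had 2.45 and GL000254v2 had 2.21.

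Genes of antigen presentation had almost no main-chromosome peak. Of 171 coding genes in the region, 15 (8.77%, 4.99 to 14.1%) had a main peak within 10 kb and 7 (4.09%, 1.66 to 8.25%) had one inside, against 70.4% and 57.6% of all coding genes. Among 8 class I genes, whose products show peptides to cytotoxic T cells or are related to those that do, none held a peak. HLA-F and HLA-E had 1 each within 10 kb, at 3.75 and 4.48 kb. MICB, MICA, HLA-G and HLA-C lay 38.4, 40.5, 58.2 and 184 kb from the nearest peak. Among 11 class II genes, which serve helper T cells, HLA-DRB1 alone had a peak within 10 kb, at 6.36 kb. HLA-DRA, which encodes the alpha chain that pairs with the DRB products, lay 151 kb away. The 5 genes of peptide cutting and loading (TAP1, TAP2, TAPBP, PSMB8 and PSMB9) lay 50.9 to 129 kb away.

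Class III, the gene-dense middle of the MHC with complement and cytokine genes, held the longest gap. None of its 15 listed genes had a main peak within 10 kb. TNF, the gene of tumour necrosis factor, lay 119 kb from the nearest peak, LTA 104 kb, BAG6 182 kb and HSPA1A 228 kb. C4B lay closest at 10.2 kb, but C4A and C4B are near-identical copies, as are HSPA1A and HSPA1B, so these are uncertain. The gap ran from 31456547 to 32045608 of chromosome 6 (589 kb) and contained 48 protein-coding genes. Of 52742 gaps between neighbouring peaks on the main chromosomes, this one contained the most coding genes, although it was only the 23rd longest on its chromosome. Further gaps of the MHC held 18 and 17 coding genes. Only 11 gaps on all main chromosomes contained 20 or more.

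Of the 19 main peaks of the MHC, 6 lay between 32045608 and 32167775, just past that gap. TNXB held peaks of 1069 bp (chr6:32045608-32046676) and 376 bp, though part of it is nearly identical to the pseudogene TNXA, so they are uncertain. Peaks of 376 bp in PRRT1, of 656 bp over the start of PPT2 (chr6:32153752-32154407) and of 1211 bp in EGFL8 (chr6:32166565-32167775) followed, with 1 of 359 bp 1.08 kb from FKBPL. Other peaks lay in SCAND3, at a start of DDR1, a collagen receptor gene (339 bp), and at the start of BRD2, a chromatin reader gene (527 bp). A peak each lay in the pseudogenes HLA-H, MCCD1P1, MICD and LYPLA2P1, which resemble other genes and are uncertain.

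Many contig peaks lay at a like distance into the sequence. Between 3.2 and 3.6 Mb from the contig start, limits set after the values were seen, lay 24 of the 70 peaks (34.3%, 23.3 to 46.6%), and each of the 7 contigs had at least 1 there. The stretch held 6 of the 9 MHC contig peaks of 900 bp or more. Starts of the contigs differ, so this is a rough scale. On the main chromosome the TNXB peak lay 3.52 Mb and the EGFL8 peak 3.64 Mb from the start of GPX5.

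A distance between 2 main peaks recurred on several MHC contigs. The midpoints of the wider TNXB peak and of the PPT2 peak were 107.9 kb apart on chromosome 6. A pair of peaks at this distance within 200 bp was found on 4 of the 7 MHC contigs. On GL000251v2 the distance was 107.8 kb, between peaks of 1125 and 946 bp. On GL000252v2 it was 107.9 kb (1008 and 436 bp), and on GL000254v2 also 107.9 kb (1195 and 486 bp). On GL000255v2 peaks of 1171 and 513 bp lay 107.9 kb apart. In each pair the first peak was the wider, as on the main chromosome (1069 and 656 bp). Among 94 contigs of other parents with 2 or more peaks, 4 had a pair at this distance. Many of the 94 have peaks over a shorter span and could not show it. The MHC contigs held 458 pairs of peaks and the 94 held 2932, so the 2 counts are not like for like. The pair was picked as the most frequent of 188 main pairs at least 5 kb apart, counting also the peak at GPX6 just outside the region. Of the rest, 15 recurred on 1 MHC contig and 172 on none. One of the 15 was the GPX6 and SCAND3 pair, 104.4 kb apart on the main chromosome and 104.5 kb on GL000251v2 (1530 to 2097 and 106076 to 106511). This distance was also found within 200 bp on 2 contigs of other parents. The pair was picked from the 15 after the values were seen. Peaks at 3483512 and 3568525 of GL000251v2 matched both the HLA-H and MICD distance and that of TNXB and the peak near FKBPL. A match on 1 contig therefore cannot show that the contig peaks belong to the named genes. The windows of TNXB, PPT2 and SCAND3 printed above lie under main peaks of the TNXB and PPT2 pair and of the GPX6 and SCAND3 pair.

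**Figure D4:**
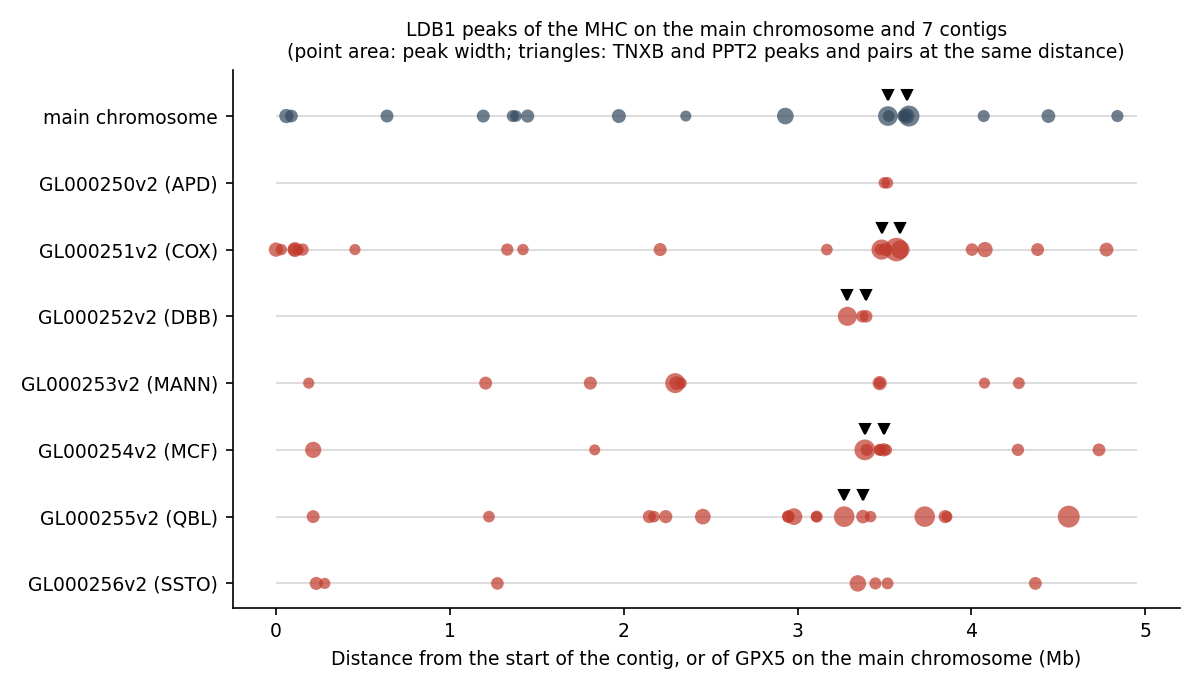
LDB1 peaks of the MHC on the main chromosome (dark, distance from the start of GPX5) and on 7 contigs (red, distance from the contig start), in Mb. Point area is proportional to peak width and triangles mark the TNXB and PPT2 peaks and the contig pairs 107.8 to 107.9 kb apart, present on GL000251v2, GL000252v2, GL000254v2 and GL000255v2. Scales of different sequences are not aligned.

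Between contigs of a region, few distances between neighbouring peaks recurred. Of 94 distances between neighbours on contigs of the MHC, the leukocyte receptor complex and 17q21.31, 2 (2.13%, 0.259 to 7.48%) recurred within 50 bp on another contig of the same region. These 2 are 1 pair seen from either side, 2506 bp on GL000254v2 and 2456.5 bp on GL000255v2. Of 3196 pairs of distances compared within a region, each counted from either side, 2 matched, and of 47310 compared with contigs of other parents 50 did. Of the 94 distances, 21 recurred on a contig of another parent, where far more distances were compared. The distances were not matched for length, and a further peak between 2 others hides a shared distance. This measure therefore cannot tell whether spacing was more alike within a region. Over whole contigs, all 3 peaks of GL000252v2 coincided within 100 bp with peaks of GL000254v2 once 1 offset was taken off, which includes the TNXB and PPT2 pair. The offset was the one with the most coinciding peaks, so at least 1 is always reached. This comparison was picked as the highest. Every other one within the regions, between contigs or with the main chromosome, reached 1 or 2, so it does not show shared spacing in general.

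The leukocyte receptor complex had even fewer main peaks. Between VSTM1 and RDH13 (chr19:54040825-55069520, 1.03 Mb) 2 were listed, 1.94 per Mb, where the flanks of the same length held 37 to the left (36.0 per Mb) and 121 to the right (118 per Mb). One of 863 bp lay in PRPF31, a splicing factor gene, and one of 517 bp in LILRA6, a receptor gene with near-identical relatives and so uncertain. The gap from 54240706 to 55086391 (846 kb) contained 28 coding genes and was the second longest of chromosome 19. Of 42 coding genes in the region, 4 (9.52%, 2.66 to 22.6%) had a main peak within 10 kb and 2 (4.76%, 0.582 to 16.2%) had one inside. Among all coding genes these shares were 70.4% and 57.6%. None of the 18 listed receptor genes had a main peak within 10 kb. LILRB3, an inhibitory receptor of myeloid cells, lay 17.2 kb from the nearest peak, LILRB4 418 kb, FCAR, the IgA receptor gene, 195 kb, and KIR3DL3 350 kb. The first 500 kb to the right of the region held 93 peaks.

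Contigs of this complex held 17 peaks on 9 sequences. GL949752v1 had 6 of them, and the other 8 contigs had 1 or 2. The 6 included a cluster of 5 in 22.6 kb (175429 to 198004) with the 2222 bp peak at 194604 to 196825, the widest of any chromosome 19 contig. The sixth was 1653 bp wide at 600652 to 602304, and GL949746v1 had a peak of 1205 bp at like coordinates (602032 to 603236). The contigs were not aligned, so whether these are the same site was not tested. The median width of the 17 was 489 bp (389 to 638 bp). The other 17 alternate-contig peaks of chromosome 19 lay on 4 contigs not counted to the complex.

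At 17q21.31 a contig placed there by its name alone, a placement that is uncertain, held more peaks than the main sequence. From PLEKHM1 to WNT3 (chr17:45434209-46818692, 1.38 Mb) the main chromosome had 9 peaks, 6.50 per Mb, against 88.8 per Mb in the left flank and 41.2 per Mb in the right one. The contig KI270908v1 had 23 peaks over 1.34 Mb, 17.2 per Mb. The median window of that length on chromosome 17, weighted towards dense stretches, held 75, and the whole chromosome had 32.3 peaks per Mb. GL000258v2, another version of the region, had 2, at 28590 to 29145 and 1804987 to 1805411. The widest peak on KI270908v1 was 1460 bp, at the end of a cluster of 4 in 23.1 kb (940147 to 963253).

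Of 12 listed genes of the inversion region, 4 held a main peak and 6 had one within 10 kb. Among all coding genes, 57.6% held one and 70.4% had one within 10 kb. For the 12 coding genes wholly inside the region, which leave out LRRC37A2, the shares were 33.3% (9.92 to 65.1%) and 50% (21.1 to 78.9%). Both intervals take in the share of all coding genes, so no shortage by gene was detectable here. MAPT held 3 peaks, of 389, 703 and 459 bp, and CRHR1, a stress hormone receptor gene, held 1 of 613 bp with another within 10 kb. LRRC37A held 1 peak and LRRC37A2, which runs past the region, held 4 beyond its right end, but they are near-identical copies and uncertain. PLEKHM1 and WNT3, a WNT ligand gene, had 1 each at 2.48 and 0.676 kb outside the gene, and each of these peaks lay outside the region as bounded. KANSL1, which encodes a subunit of a histone acetyltransferase complex, lay 16.7 kb from the nearest peak and NSF, a membrane fusion gene, 61.9 kb. A gap of 566 kb, from 46253624 to 46819368, closed the region.

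**Figure D5:**
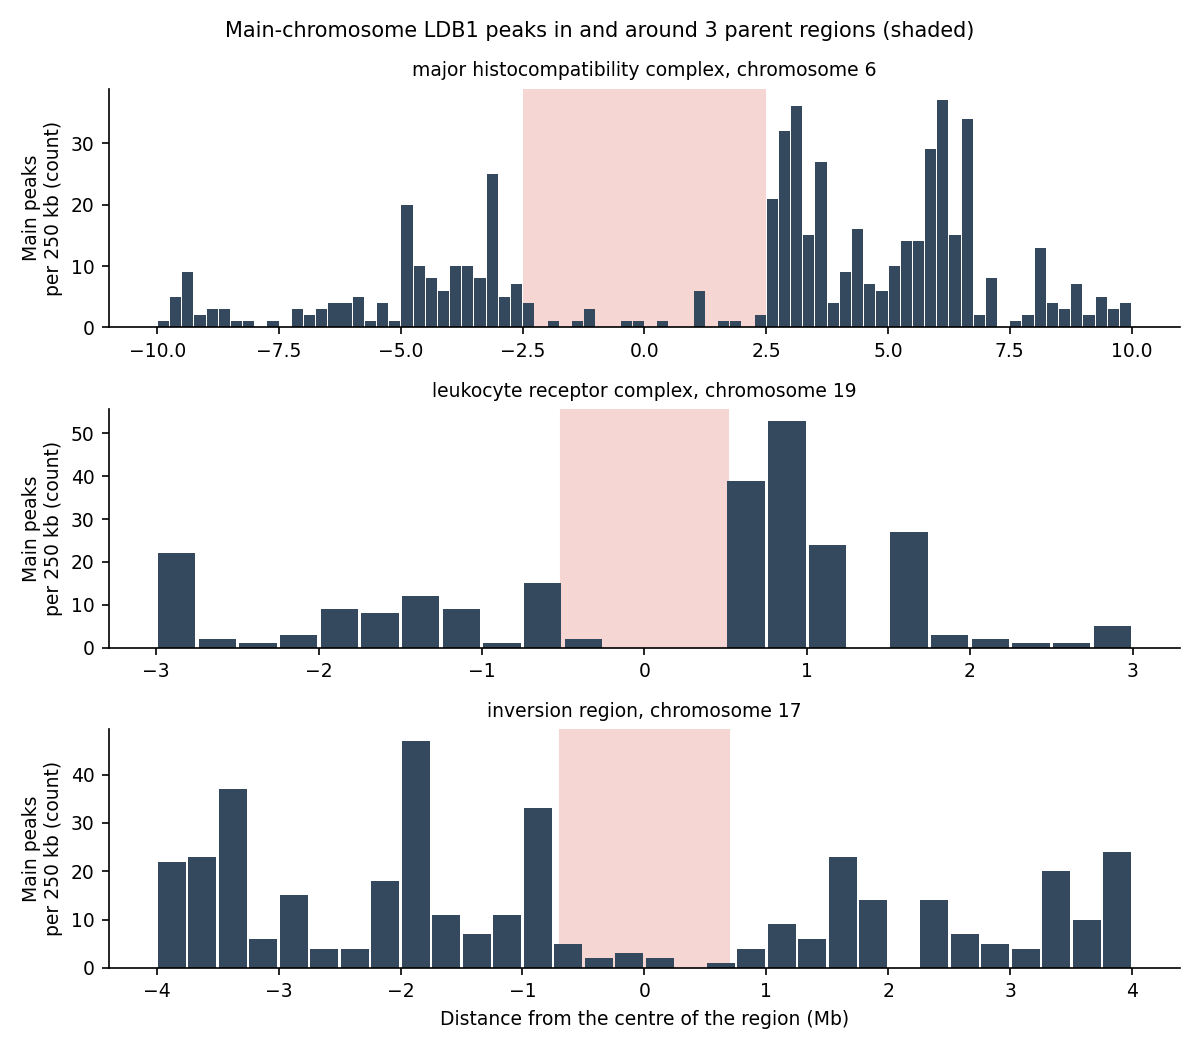
Main-chromosome LDB1 peaks per 250 kb by distance in Mb from the centre of the MHC (top), the leukocyte receptor complex (middle) and the 17q21.31 inversion region (bottom), with each region shaded. The shaded parts hold 19, 2 and 9 peaks, and the bars rise just outside them, to the right of the MHC and of the leukocyte receptor complex and to the left of the inversion region.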

How the data were processed

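CUT&Tag was done on untreated NB4 cells with an LDB1 or an IgG antibody, with the Hyperactive Universal kit of Vazyme per the labels' protocols. The file used was the deposited LDB1 peak list, which per the file headers gives chromosome, start, end, length in bp and name. The length equalled end minus start plus 1 in every row. The build hg38, Bowtie2 2.4.1 and MACS2 2.0.10 are named in the submitters' processing notes; threshold, parameters, duplicates, reads that align to several places and use of the IgG library were, in the sources used here, not given. More reads or a looser threshold would give more and wider peaks.

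Members were the rows whose name ended in _alt. Members and gene lists were chosen with earlier results of these data known. Contigs were put into the MHC, the leukocyte receptor complex or 17q21.31 by their names from general knowledge of the assembly, since no table of contig positions was used here, and all others were described by parent only. Genes came from RefSeq (GRCh38.p14). Genes named were the region bounds, listed genes, and genes under or nearest to a main peak of a region; peaks named were the widest, the largest clusters and those of the 3 regions. GPX6, SCAND3, TNXB, PPT2, PRRT1, EGFL8, FKBPL, DDR1, BRD2, PRPF31, LILRA6 and the pseudogenes were named after their values were seen. Shares carry exact (Clopper-Pearson) 95% intervals, a parent with a count of 0 carries the limit of 3 counts of its total, and medians carry exact order-statistic ones. With 1 library per antibody no test was run. Functions were checked on simulated data. Python 3.11.15, pandas 2.3.3 and scipy 1.17.1 were used.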

Additional observations from a re-analysis of the deposited data

How the results depend on the processing

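No paired analysis was possible because each antibody had 1 library and only the LDB1 list was used. The share of peaks on alternate contigs was lower among wide peaks, at 1.01% of the widest 50% and 0.884% of the widest 25% of all peaks. The share of contig peaks in clusters of 2 or more was 51.5% at 10 kb, 36.4% at 5 kb and 61.9% at 20 kb. On the main chromosomes it was 66.4% at 10 kb, which is not like for like because many contigs had few peaks. With 500 kb added to either side, which takes in the dense flanks, main peaks per Mb were 13.8 in the MHC, 55.7 in the leukocyte receptor complex and 26.8 at 17q21.31. With the widest 50% of peaks they were 1.01, 0.972 and 3.61, since fewer peaks were counted. Neighbour distances recurred within a region in 0% with a tolerance of 20 bp and in 4.26% with 100 bp, against 2.13%. With the widest 50% of peaks, 100 contigs of 147 had a peak and chromosome 8 contigs held 15.8% of contig peaks against 15.6%. With 100 or 500 bp, chosen after seeing the data, the TNXB and PPT2 distance was found on 3 or 4 MHC contigs. Other main pairs also gained contigs with 500 bp. The distance of 85.4 kb between the wider TNXB peak and the peak near FKBPL was then found on 3 MHC contigs, against 1 with 200 bp. Some further pairs were found on 2, so the TNXB and PPT2 pair stood out less. Depth was unknown, so a region with few peaks cannot be told apart from one with few reads.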
